A study of Mus musculus with 10 samples.

Results

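Linker and replacement histone genes were followed in polyA-selected RNA of AT2 (alveolar type II) cells, the lung epithelial cells that secrete surfactant. The 9 genes were Hist1h1c, H1f0 and H1fx (linker histones), Hist1h2bc (a core histone H2B), H2afz, H2afx and H2afy (H2A variants), and H3f3a and H3f3b (histone H3.3). They were found by matching Ensembl IDs to GENCODE M21 symbols, and all 9 were among the 16154 genes with values. They were chosen by measured values: each was seen in this polyA-selected RNA, and Hist1h1c was already known from these libraries to be low in knockout cells. The Hist1h1c difference between the groups is therefore described, and nothing is read from its test, though the fit over all genes includes it. The other 8 were tested within that fit.

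Linker histones bind nucleosomes where DNA enters and leaves, and help to compact chromatin. Most core and H1 histone genes are replication-dependent: they are transcribed in S phase, and their messages end in a conserved stem-loop in place of a polyA tail. Replacement histones are made throughout the cell cycle from polyadenylated messages and are the main supply of new histone in cells that seldom divide, as AT2 cells do in a healthy lung. PolyA selection keeps polyadenylated messages and loses most stem-loop messages, so that low values of replication-dependent genes do not measure their transcription.

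Cells were sorted from the lungs of C57BL/6 mice aged 8 to 10 weeks. The knockout group had 5 libraries (replicates 1 to 5) with the genotype label HOIL-1L -/-, and the wild type (WT) group had 5 (replicates 2 to 6). HOIL-1L, the product of Rbck1, is a subunit of LUBAC, a ubiquitin ligase complex that builds linear chains. The genotype is given in a second form too: the series' design text names CreSPC/HOIL-1Lfl/fl mice, in which Cre, driven by the surfactant protein C promoter of AT2 cells, acts on a floxed allele. Mouse numbers differ between titles, so each library was taken as 1 mouse. The numbers form 2 runs, not named as batches in the labels: the first holds knockout 1 to 3 with WT 2 and 3, and the second holds knockout 4 and 5 with WT 4 to 6.

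Levels are given as normalized counts per M, the deposited value over the average of the 10 column totals (7.14 M, M for mega). Column totals lay between 6.94 and 7.43 M, and the libraries held roughly 7.69 to 13.2 M reads, judged from the lowest values in each column. These read numbers are uncertain: from 27.6% (knockout 3) to 70.3% (WT 5) of low values lay near whole multiples of the lowest level. Rbck1 had 59.3, 29.8, 36.4, 38.0 and 38.8 per M in knockout 1 to 5, against 29.7, 56.7, 57.8, 56.1 and 56.6 per M in WT 2 to 6. The library labelled knockout 1 thus had a WT level and the library labelled WT 2 a knockout level, and the groups overlapped (log2 difference -0.34, two-sided exact permutation p = 0.206, where 252 arrangements allow 0.00794 at the smallest). Results are given with all 10 libraries as labelled and again with 8, without those 2. Xist and Y-linked genes read knockout 2 and 3 and the library labelled WT 2 as female and the other 7 as male. Summed over 10 AT2 markers, led by Sftpc, knockout libraries had 183820 to 211480 per M and WT libraries 184440 to 220530 per M. Sums for markers of other cells were far lower, but Sftpc, at 129000 per M on average, made up most of the AT2 sum. The club cell gene Scgb1a1 averaged 5291 per M, above some AT2 markers, such as Sftpd at 4140 per M. The sums in knockout and WT libraries were 4873 to 9037 and 4636 to 9179 per M for 4 club cell genes, 2206 to 2629 and 2228 to 2856 per M for 8 alveolar type I genes, and 537 to 715 and 454 to 841 per M for 6 ciliated cell genes. They were 66.8 to 128 and 80.6 to 133 per M for macrophage genes (8 of 10 with values), 10.3 to 24.3 and 8.25 to 16.5 per M for 7 mesenchymal and mesothelial genes, and 9.44 to 13.9 and 8.22 to 13.9 per M for endothelial genes (4 of 6). No marker passed the test over all genes, where none of 12946 genes passed, and the ranges of the groups overlapped in every list. Lymphocyte and red blood cell genes summed to at most 0.830 and 3.27 per M in any library.

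The 3′ ends are shown because a stem-loop marks replication-dependent messages and a polyadenylation signal marks the messages that polyA selection keeps. A histone stem-loop was searched anywhere in a transcript as the stem GGYYYT, the loop TYYN and the stem's exact reverse complement. Y stands for C or T and N for any base. With this stem of 6 bases and loop of 4, a stem-loop was found in the annotated transcripts of 2 of the 9 members, Hist1h1c and H2afx. The same search found it in 0.26% of 21901 protein-coding genes and in 68.7% of the 67 protein-coding genes named Hist1h to Hist4h, the 2 members of that name included. The sites are shown from GENCODE M21 transcripts on mm10, with the stem and loop in capitals, 5′ to 3′ on the transcript strand, which is the plus strand for both genes (chr13:23739505-23739534 and chr9:44335233-44335262).
Hist1h1c: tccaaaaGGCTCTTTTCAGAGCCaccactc
H2afx: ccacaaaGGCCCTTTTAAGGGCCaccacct
Both stem-loops lie far inside the annotated message, 840 bases before the transcript end in Hist1h1c and 822 bases before it in H2afx. A polyadenylation signal, either AATAAA or the variant ATTAAA, lay within the last 50 bases of an annotated transcript in 7 of the 9 members, against 77.9% of protein-coding genes and 25.4% of the same 67 genes. Hist1h2bc and H2afy had neither hexamer in that window, which says only that these letters are not there. The signals of the genes with both features and of the H3.3 pair are shown with the hexamer in capitals (chr13:23740338-23740367 plus strand, chr9:44336037-44336066 plus strand, chr1:180800832-180800861 minus strand and chr11:116021981-116022010 minus strand).
Hist1h1c: ttctAATAAAaagcgtttagttttcattca
H2afx: aattttATTAAAggatcgtttggttttgtt
H3f3a: tgaaaaatAATAAAagtaccaatagaagaa
H3f3b: cttacaAATAAActagtaagtttggagttt
Hist1h1c and H2afx were thus the members that carry both kinds of 3′ end in their annotation.

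Levels per kilobase of exon spanned a wide range. H3f3b was the highest at 196 ± 15.2 per M per kb (SD, n = 10 libraries), followed by H1f0 at 121 ± 13.4, and these stood above 98.8% and 97.9% of the 12946 tested genes. H2afz (69.0 ± 10.7 per M per kb) and H3f3a (63.9 ± 8.11) came next and did not differ beyond their spread. H2afy had 15.4 ± 0.699 per M per kb, above the next 3. Hist1h2bc (10.0 ± 2.97), Hist1h1c (9.65 ± 2.70) and H2afx (7.49 ± 1.47) overlapped each other within 1 SD. H1fx was the lowest at 2.11 ± 0.963 per M per kb, above 29.9% of tested genes. The 2 genes of the histone cluster, Hist1h1c and Hist1h2bc, stood above 70.4% and 71.6% of tested genes, below the messages of H3.3, H1.0 and H2A.Z. Lengths are of all annotated exons together, for H2afy 6809 bases, against 2046 in its longest coding transcript. For H2afz these lengths are 1776 and 1069 bases, and for H3f3a 3504 and 2841. The distances of these genes from each other and from the rest depend on the lengths used, and others were not tried.

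**Figure D1:**
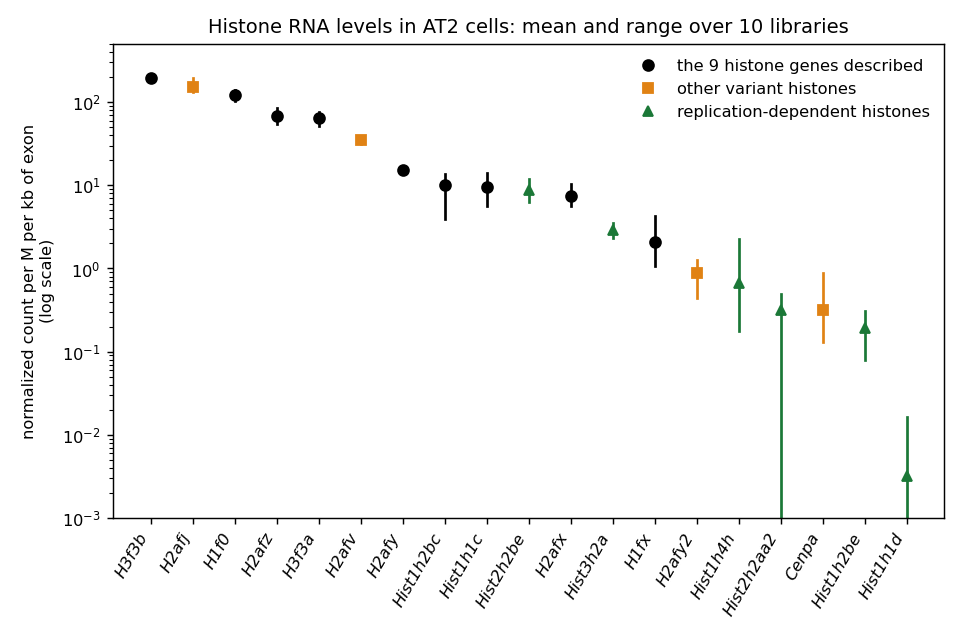
Normalized count per M per kb of exon (log scale) for the 9 genes, other variant histones and replication-dependent histones with values above 0; markers are means and lines the range over all 10 libraries, and lines that reach the lower edge include 0. H3f3b, at 196, and H2afj, at 152, head the order, and H1fx, at 2.11, is the lowest of the 9.

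Among the linker histones, Hist1h1c encodes H1.2, a somatic subtype whose gene lies in the large histone cluster on chromosome 13 (chr13:23738808-23740367, plus strand, 1 exon). It had 12.9, 12.0, 11.1, 8.91 and 12.9 per M in knockout 1 to 5, against 18.1, 15.0, 21.9, 17.9 and 20.0 per M in WT 2 to 6. As labelled, every knockout library lay below every WT library. This rests on the labels of knockout 1 (12.9 per M) and WT 2 (18.1 per M), which their Rbck1 levels go against. With those labels exchanged the groups would overlap. The mean was 11.6 ± 1.65 per M in knockout cells and 18.6 ± 2.57 per M in WT cells (SD, n = 5 each), or 62.3% of WT. The log2 fold change was -0.66, on the log2(value per M + 0.5) scale used throughout. Without the libraries labelled knockout 1 and WT 2, the means were 11.2 ± 1.70 per M in knockout cells and 18.7 ± 2.96 per M in WT cells (SD, n = 4 each), or 60.1% of WT. These values cover polyadenylated Hist1h1c message, and message that ends at the stem-loop is mostly missed. In bulk RNA, fewer cells that make a message and less of it in each cell cannot be told apart.

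H1f0 encodes H1.0, the replacement linker histone that accumulates in differentiated, non-dividing cells (chr15:79028450-79030504, plus strand, 1 exon). It had 268, 244, 212, 236 and 228 per M in knockout 1 to 5, against 277, 279, 288, 240 and 215 per M in WT 2 to 6. The 3 highest values were all WT, but WT 5 and 6 lay within the knockout range. Means were 237.7 ± 20.7 per M in knockout cells and 259.9 ± 31.1 per M in WT cells (SD, n = 5 each). This gave a log2 fold change of -0.12 (95% interval -0.30 to 0.06, adjusted p = 0.657 with limma, the tool behind every adjusted p). H1fx encodes H1.10, a replication-independent linker histone (chr6:87980421-87981637, minus strand, 1 exon). It had 1.67, 2.27, 1.80, 1.57 and 2.58 per M in knockout 1 to 5, against 5.14, 2.55, 3.81, 1.31 and 2.92 per M in WT 2 to 6. The lowest value of all was WT 5 and the highest the library labelled WT 2, so the groups overlapped. At this level a library's value rests on few reads, and the log2 fold change was -0.48 (95% interval -1.03 to 0.08, adjusted p = 0.586). It was -0.29 without the library labelled WT 2 and -0.25 in the 8 libraries (95% interval -0.82 to 0.32, adjusted p = 0.732), where H1fx averaged 2.06 ± 0.456 per M in knockout cells and 2.65 ± 1.04 per M in WT cells (SD, n = 4 each). For H1f0 the value in the 8 libraries was -0.14 (adjusted p = 0.505).

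Per kilobase, H1f0 gave most of the linker histone RNA of these 3 genes. Its share was 93.1%, 92.6%, 92.3%, 94.3% and 91.5% in knockout 1 to 5, against 89.5%, 92.1%, 89.1%, 90.3% and 87.3% in WT 2 to 6. Only knockout 5 and WT 3 broke a complete separation. Hist1h1c made up 5.95 ± 0.792% in knockout cells and 8.53 ± 1.55% in WT cells, and H1fx 1.31 ± 0.310% in knockout cells and 1.81 ± 0.735% in WT cells (SD, n = 5 each). These shares carry the Hist1h1c difference and were not tested. They cover polyadenylated RNA of 3 genes and are not shares of linker histone protein.

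Hist1h2bc, the H2B gene, lies in the same cluster (chr13:23684199-23692908, plus strand, 2 exons), 45.9 kb from Hist1h1c. It had 12.4, 8.74, 4.53, 10.6 and 8.83 per M in knockout 1 to 5, against 14.0, 13.6, 15.9, 14.7 and 12.7 per M in WT 2 to 6. Every knockout library again lay below every WT library as labelled, with a gap of only 12.4 to 12.7 between the nearest pair. With the labels of knockout 1 and WT 2 exchanged, as their Rbck1 levels read, the groups would overlap here too. Means were 9.03 ± 2.92 per M in knockout cells and 14.2 ± 1.18 per M in WT cells (SD, n = 5 each), or 63.7% of WT. That log2 fold change, -0.69 (SE 0.19, 95% interval -1.09 to -0.29), did not pass the test over all genes (adjusted p = 0.314). In the 8 libraries Hist1h2bc averaged 8.19 ± 2.59 per M in knockout cells and 14.2 ± 1.35 per M in WT cells (log2 fold change -0.82, adjusted p = 0.0823). Of its 50-base exon windows, 30.6% also occur in other annotated genes, so that the counting could assign some of its reads elsewhere. There were 220 such genes, most often another H2B gene, Hist1h2br. For Hist1h1c the share of windows was 8.54%, most often Hist1h1d.

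Complete separation of the groups as labelled was seen in this direction in 2 of 9 members, Hist1h1c and Hist1h2bc, against 0.633% of tested genes (82 of 12946). Since Hist1h1c was chosen with this contrast known, the count is a description. With all 10 libraries none of the 8 members other than Hist1h1c passed an adjusted p of 0.05, against 0% of tested genes (0 of 12946 with limma, of which 1227 had an unadjusted p under 0.05, and the smallest adjusted p was 0.269). None of these 8 members passed with 8 libraries either, against 0.402% of tested genes (52 of 12946), or in the second run alone, against 0.317% (41 of 12946). Hist1h1c is left out of these counts, since it was chosen on the same contrast in the same libraries. All 9 fold changes were below 0, with a median log2 value of -0.16, while 48.7% of all tested genes were below 0 and their median was 0.005. The members share libraries and vary together, so their common sign is not 9 separate observations.

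Sex was not even across the 8 libraries: all 4 WT libraries were male, and 2 of the 4 knockout libraries were female. Hist1h1c in the 2 female knockout libraries, 12.0 and 11.1 per M, lay within the range of the 2 male ones, 8.91 and 12.9 per M. With sex as a covariate over 10 libraries its log2 fold change was again -0.66, and that of Hist1h2bc was -0.60 (adjusted p = 0.244). The 2 lowest Hist1h2bc values, 4.53 and 8.74 per M, were the 2 female knockout libraries. The only female WT library was the one labelled WT 2, whose Rbck1 level goes against its label, so in WT cells the covariate rests on it alone. The part of sex in the Hist1h1c and Hist1h2bc values was not tested beyond this covariate.

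**Figure D2:**
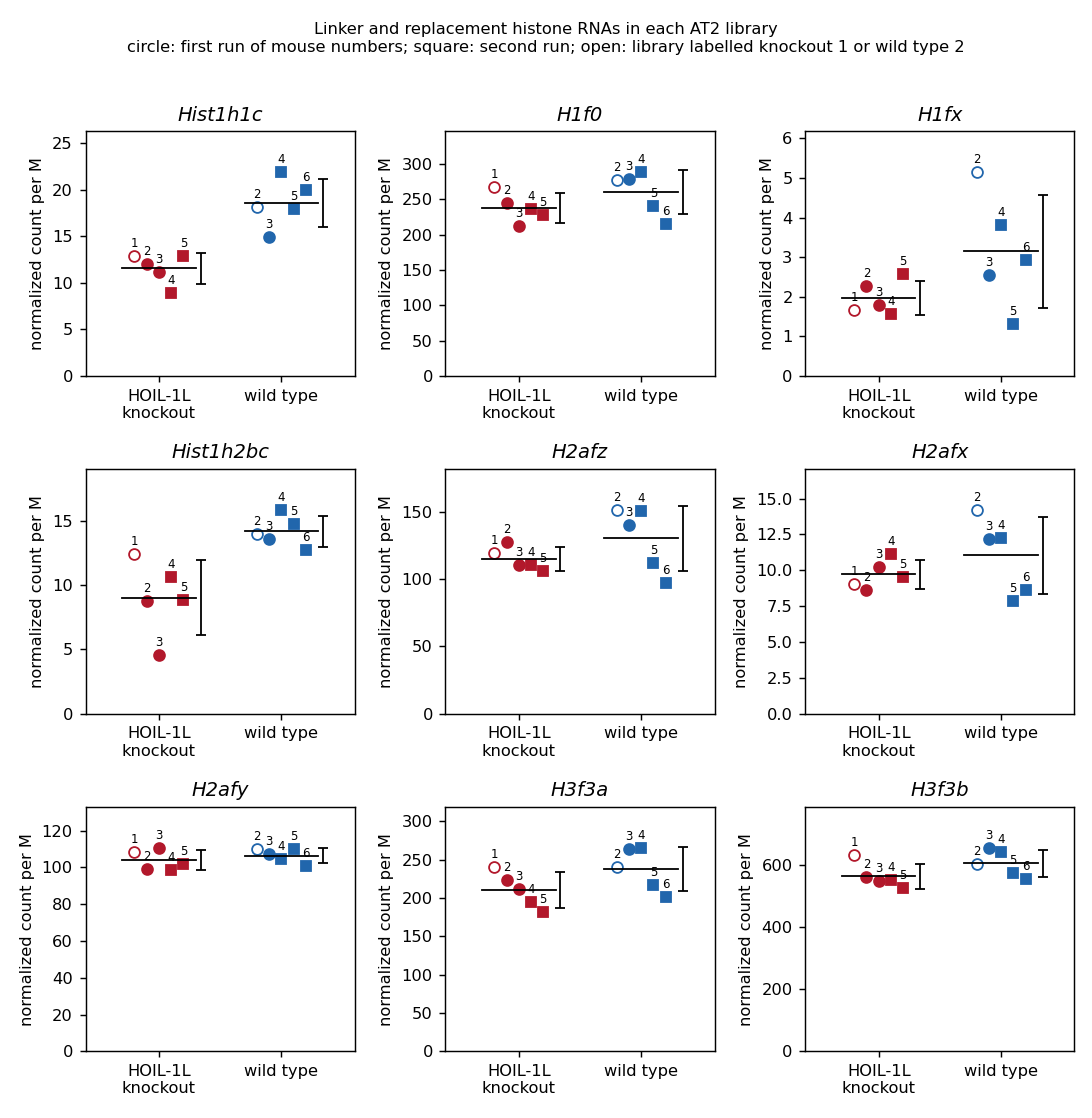
Normalized count per M of each gene in the 5 knockout libraries (left, red) and 5 WT libraries (right, blue); numbers are replicates, horizontal lines group means and bars 1 SD. Hist1h1c (8.91 to 12.9 in knockout, 15.0 to 21.9 in WT) and Hist1h2bc (4.53 to 12.4 in knockout, 12.7 to 15.9 in WT) separate the groups as labelled, while the other 7 overlap.

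Other genes near the pair were looked at beside it. Of 4 other tested genes within 500 kb of the pair, Hfe, Carmil1, Abt1 and Zfp322a, 3 were below 0 and 1 above, and in none were the groups apart. Hfe, the hemochromatosis gene between the 2 histone genes, averaged 23.8 per M in knockout cells and 28.8 per M in WT cells (log2 fold change -0.28), and Carmil1, a regulator of actin capping, 42.5 per M in knockout cells and 38.4 per M in WT cells (0.14). Across the 10 libraries Hist1h1c and Hist1h2bc had a Pearson r of 0.659 (Spearman 0.842), but 0.095 once each group's mean was taken out.

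Among the H2A variants, H2afz encodes H2A.Z, placed at promoters and enhancers by the SRCAP and EP400 remodellers (chr3:137864487-137866922, plus strand). It had 119, 128, 111, 111 and 106 per M in knockout 1 to 5, against 151, 140, 150, 112 and 96.99 per M in WT 2 to 6. WT 2, 3 and 4 were above every knockout library, while WT 5 lay within the knockout range and WT 6 below it. H2afz's log2 fold change of -0.16 (95% interval -0.39 to 0.07, adjusted p = 0.647) did not pass, nor did the -0.12 of the 8 libraries (adjusted p = 0.695). Of its 50-base exon windows 35.4% also occur in other annotated genes, most often Tmcc1, the highest such share among the 9 members, so its counts could include reads of other genes or lack some of its own.

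H2afx encodes H2A.X, whose phosphorylated form marks DNA double-strand breaks (chr9:44334694-44336077, plus strand, 1 exon). It had 9.02, 8.62, 10.2, 11.2 and 9.55 per M in knockout 1 to 5, against 14.2, 12.2, 12.3, 7.88 and 8.59 per M in WT 2 to 6. WT 2 to 4 were the highest of all, as for H2afz, and WT 5 and 6 were the lowest of all. Over 10 libraries the log2 fold change was -0.15 (95% interval -0.47 to 0.17, adjusted p = 0.786). It was -0.05 without the library labelled WT 2 and -0.03 in the 8 libraries (95% interval -0.36 to 0.31, adjusted p = 0.962), where H2afx averaged 9.89 ± 1.08 per M in knockout cells and 10.2 ± 2.33 per M in WT cells (SD, n = 4 each). The value was -0.48 in the first run alone and 0.13 in the second, a difference of 0.61 (95% interval 0.04 to 1.18) that did not pass (interaction adjusted p = 0.812).

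H2afy encodes macroH2A1, an H2A with a large macro domain that is enriched on the inactive X chromosome (chr13:56073619-56136361, minus strand). It was the steadiest of the 9, with 109, 99.3, 111, 98.6 and 102 per M in knockout 1 to 5, against 110, 107, 105, 110 and 101 per M in WT 2 to 6. Both groups spanned nearly the same values, and the coefficient of variation over all 10 libraries was 4.53%. macroH2A1 message had a log2 fold change of -0.04 (95% interval -0.17 to 0.09, adjusted p = 0.872), so a difference of more than 0.17 in either direction lies outside this interval; in the 8 libraries it was again -0.04 (adjusted p = 0.849).

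H3f3a and H3f3b encode the same protein, H3.3, which replaces H3 in transcribed and regulatory chromatin outside S phase. Their coding sequences of 408 bases each, without the stop codon, differ at 95 positions (76.7% identical), and the longest identical run is 23 bases, shorter than the 50-base windows used to look for shared sequence. H3f3a (chr1:180800832-180813943, minus strand) had 240, 224, 212, 194 and 181 per M in knockout 1 to 5, against 240, 264, 266, 216 and 200.85 per M in WT 2 to 6. The library labelled knockout 1 was level with the library labelled WT 2, and only knockout 4 and 5 lay below every WT library. For H3f3a this came to a log2 fold change of -0.17 (95% interval -0.36 to 0.02, adjusted p = 0.574). Part of its sequence is shared: 27.1% of its 50-base windows occur in other annotated genes, 193 in all, most often Gm17275. Both Gm17275 and H3f3aos overlap H3f3a on the opposite strand, and the strand setting of the counting is not given in the sources used here. Such windows made up 14.0% of H1fx, most often with Gm5577 on the opposite strand, and 5.68% to 9.66% of H1f0, H2afx, H2afy and H3f3b.

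H3f3b (chr11:116021912-116027962, minus strand) had 632, 561, 550, 551 and 524 per M in knockout 1 to 5, against 602, 656, 641, 573 and 555 per M in WT 2 to 6. The library labelled knockout 1 was the third highest of the 10, and knockout 3, 4 and 5 were below every WT library. Means were 563.6 ± 40.7 per M in knockout cells and 605.4 ± 42.9 per M in WT cells (SD, n = 5 each). H3f3b thus had a log2 fold change of -0.10 (95% interval -0.25 to 0.05, adjusted p = 0.655). Without the libraries labelled knockout 1 and WT 2 it was -0.15 (adjusted p = 0.400), and that of H3f3a was -0.22 (adjusted p = 0.353).

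Per kilobase, H3f3b supplied about the same share of H3.3 message in every mouse. It was 75.6%, 74.7%, 75.3%, 76.9% and 77.3% in knockout 1 to 5, against 74.7%, 74.5%, 74.0%, 75.7% and 76.5% in WT 2 to 6. The groups overlapped, with means of 76.0 ± 1.10% in knockout cells and 75.1 ± 1.02% in WT cells (SD, n = 5 each). In normalized counts the ratio of H3f3b to H3f3a was 2.69 ± 0.164 in knockout cells and 2.56 ± 0.142 in WT cells, and it lay between 2.41 and 2.89 in all libraries.

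**Figure D3:**
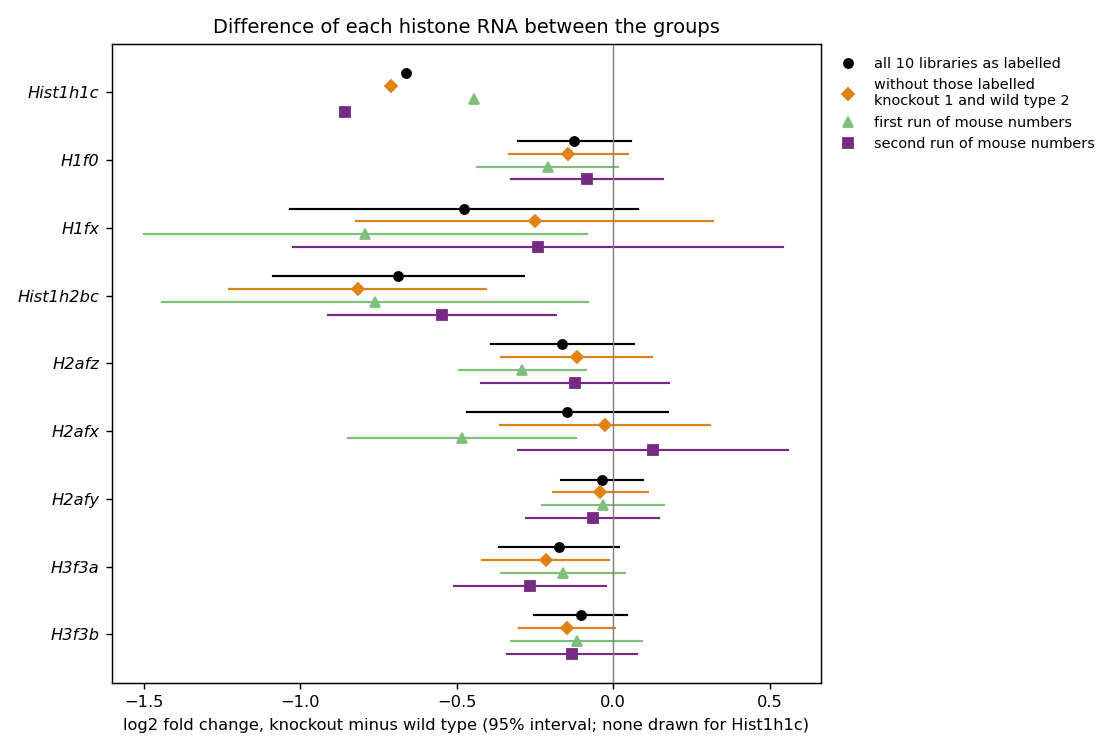
Log2 fold change (knockout minus WT, x axis) of each gene with all 10 libraries, with 8, and within each run of mouse numbers; lines are 95% intervals, left out for Hist1h1c. Hist1h1c lies at -0.66, -0.71, -0.44 and -0.86 in these 4 comparisons, and H2afx is the gene with values on both sides of 0, at -0.48 and 0.13 in the 2 runs.

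Several members varied together from mouse to mouse. Over 10 libraries H3f3a and H3f3b had a Pearson r of 0.948 (Spearman 0.939) and 0.931 with group means taken out, H1f0 and H2afz 0.897 and 0.877, and H1f0 and H3f3b 0.877 and 0.850. H2afy had no r above 0.451 with any member. The libraries with the highest column totals, knockout 1 and WT 2, 3 and 4 (7.30 to 7.43 M, against 6.94 to 7.04 M in the other 6), were also the 4 with the highest H3f3b, H3f3a and H1f0 values, and they had the highest Sftpc values. Between the runs no member passed (H3f3a -0.21, second minus first run, limma adjusted p = 0.199; H2afz -0.22, adjusted p = 0.274), while 81 of all genes did. The part of the column total in these values was not tested; with every column scaled otherwise, by equal totals, trimmed means or median ratios, the fold change of H3f3b lay between -0.11 and -0.08 and that of Hist1h1c between -0.67 and -0.64.

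**Figure D4:**
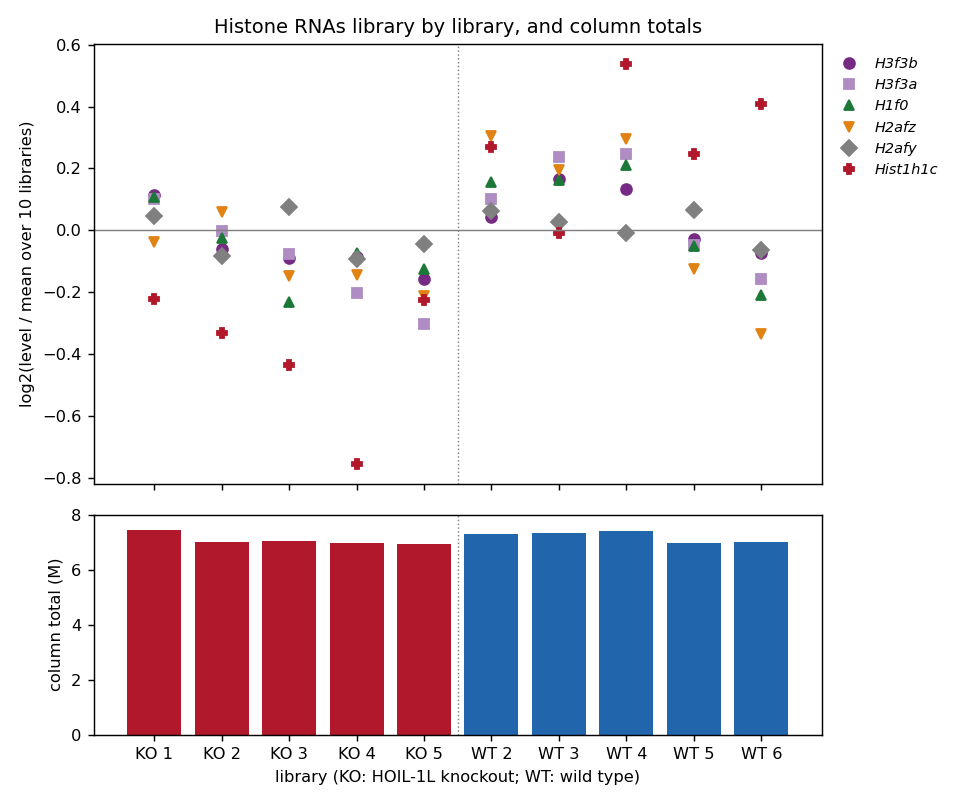
Upper panel: log2 of the level over the mean of 10 libraries for 6 of the genes; lower panel: column total in M; knockout libraries on the left, WT on the right. H3f3b, H3f3a and H1f0 lie above 0 together in knockout 1 and in WT 2, 3 and 4, while Hist1h1c lies below 0 in all 5 knockout libraries.

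Genes whose level followed each member most closely were looked up among 11620 tested genes with an official symbol, by Pearson r over the 10 libraries. For Hist1h1c they were Ino80c (a subunit of the INO80 remodeller, 0.958), Krt18 (0.945) and Krt8 (0.931), the paired keratins of simple epithelia, Rrp7a (a ribosomal RNA processing factor, 0.929) and Cldn7 (a claudin, 0.920). Krt8 averaged 228.9 ± 22.6 per M in knockout cells and 276.8 ± 24.2 per M in WT cells, and Krt18 141.5 ± 8.66 per M in knockout cells and 171.2 ± 11.5 per M in WT cells (SD, n = 5 each). For the other members they were Snrpg for H1f0 (0.964), Mypop for H1fx (0.944), Rcbtb2 for Hist1h2bc (0.961), Lamtor1 for H2afz (0.963), Zfyve19 for H2afx (0.948), Smim26 for H2afy (0.933), Sem1 for H3f3a (0.977) and Higd1a for H3f3b (0.987). The best r was thus at least 0.933 for every member, but it is the highest from a search of 11620 genes over only 10 libraries. Genes picked for following Hist1h1c carry its group difference, so the Krt8 and Krt18 means are not a separate result. The points share the groups and the column totals, so r is a description only.

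The other histone genes gave a frame for these values. Of 12 further linker and variant genes 4 were tested, and all 4 were below 0 (median log2 fold change -0.17). None passed, as was so for all 12946 tested genes. H2afj, an H2A variant of mammals, was the second highest histone message per kilobase at 152 per M per kb, with 259.0 ± 17.1 per M in knockout cells and 297.5 ± 37.6 per M in WT cells (SD, n = 5 each; log2 fold change -0.19, adjusted p = 0.487). H2afv, the second H2A.Z gene, averaged 54.5 ± 4.59 per M in knockout cells and 58.5 ± 2.85 per M in WT cells. H2afy2, the second macroH2A gene, averaged 1.78 ± 0.420 per M in knockout cells and 2.07 ± 0.691 per M in WT cells. Of 67 further annotated genes named Hist1h to Hist4h, mostly replication-dependent and with a few pseudogenes, 7 had values, 2 passed the filter on low values and none passed the test. Hist2h2be had 21.1 ± 5.47 per M in knockout cells and 25.5 ± 4.69 per M in WT cells (log2 fold change -0.28, adjusted p = 0.584). Hist3h2a had 6.59 ± 0.902 per M in knockout cells and 5.97 ± 1.04 per M in WT cells (0.14, adjusted p = 0.795), and Hist1h4h 0.194 ± 0.0860 per M in knockout cells and 0.443 ± 0.410 per M in WT cells. Hist1h1b, a replication-dependent linker gene, was listed at 0 in every library.

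None of the genes that make, place or act on these histones passed the test, but neither did any other of the 12946 tested genes. Of 17 tested genes of histone message processing, 10 were above 0 and 7 below (median log2 fold change 0.04). The 3 highest per kilobase were Cpsf3, the endonuclease that cleaves histone messages, with 100.6 ± 5.45 per M in knockout cells and 101.8 ± 6.91 per M in WT cells, Upf1 (log2 fold change 0.07) and Cpsf1 (-0.05). Of 28 chaperones and remodellers 14 were above 0 and 14 below (median -0.005), led by Npm1 (139.7 ± 15.5 per M in knockout cells and 142.7 ± 14.0 per M in WT cells), Rbbp7 (log2 fold change -0.09) and Dek (0.02). Of 16 genes of H2A.X signalling, H2afx among them, 12 were above 0 and 4 below (median 0.13), and the highest per kilobase were Ppp4c, Baz1b and H2afx itself. Ppp4c, a phosphatase subunit, averaged 37.6 ± 2.12 per M in knockout cells and 41.9 ± 2.72 per M in WT cells. Baz1b, the kinase of the H2A.X tyrosine, averaged 110.7 ± 10.5 per M in knockout cells and 94.4 ± 7.89 per M in WT cells (log2 fold change 0.23, adjusted p = 0.387).

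Proliferation genes differed in level. Over 10 libraries Pcna and Mcm6 averaged 37.2 and 27.8 per M, above the median of tested genes, 19.5 per M, and Cdc20 averaged 13.4 per M, below it. None of 24 tested proliferation genes passed, as was so for all tested genes. The 24 were below 0 in 21 and above 0 in 3, with a median log2 fold change of -0.12. The sum over all 25 proliferation genes was 200.6 to 262 per M in knockout libraries and 194 to 368 per M in WT libraries, so the widest spread was in WT. Pcna, the sliding clamp of replication, averaged 37.1 ± 1.94 per M in knockout cells and 37.2 ± 5.25 per M in WT cells (SD, n = 5 each). Cdc20, an activator of mitotic exit, averaged 11.2 ± 3.28 per M in knockout cells and 15.5 ± 6.74 per M in WT cells, and Mcm6, a replicative helicase subunit, 26.9 ± 3.07 per M in knockout cells and 28.8 ± 3.69 per M in WT cells. The part of cycling cells in the Hist1h1c and Hist1h2bc values was not tested.

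Promoters are shown for Hist1h1c, which separated the groups as labelled, and for the H3.3 pair, which moved together from mouse to mouse. The windows are 300 bases long and end 50 bases after the RefSeq start (GRCm38.p6, gene strand, 5′ to 3′), and 7 of the 9 members had one; Hist1h2bc and H2afx had no entry. Capitals mark every match on either strand to the CCAAT box, to a TATA motif (TATAAA and also TATATA), to the GC box GGGCGG, and to the element AAACACA that is known from H1 genes. Neighbouring matches may overlap. Of 32851 windows of this length, 37.4% hold CCAAT, 17.1% a TATA motif, 35.7% GGGCGG and 7.18% AAACACA. The Hist1h1c window (chr13:23738557-23738856, plus strand) is followed by those of H3f3a (chr1:180813556-180813855, minus strand) and H3f3b (chr11:116024455-116024754, minus strand).
Hist1h1c: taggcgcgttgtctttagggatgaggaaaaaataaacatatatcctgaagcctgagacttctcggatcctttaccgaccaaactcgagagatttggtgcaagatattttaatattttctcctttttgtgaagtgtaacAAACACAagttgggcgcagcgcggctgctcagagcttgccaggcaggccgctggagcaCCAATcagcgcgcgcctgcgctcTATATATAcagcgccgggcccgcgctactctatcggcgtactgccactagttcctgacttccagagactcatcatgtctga
H3f3a: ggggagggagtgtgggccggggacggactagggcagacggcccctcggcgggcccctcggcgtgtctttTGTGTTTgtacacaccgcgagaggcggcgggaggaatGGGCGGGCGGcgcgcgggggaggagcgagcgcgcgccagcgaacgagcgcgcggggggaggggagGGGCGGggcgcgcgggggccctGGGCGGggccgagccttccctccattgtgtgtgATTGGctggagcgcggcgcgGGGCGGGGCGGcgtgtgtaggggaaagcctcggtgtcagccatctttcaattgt
H3f3b: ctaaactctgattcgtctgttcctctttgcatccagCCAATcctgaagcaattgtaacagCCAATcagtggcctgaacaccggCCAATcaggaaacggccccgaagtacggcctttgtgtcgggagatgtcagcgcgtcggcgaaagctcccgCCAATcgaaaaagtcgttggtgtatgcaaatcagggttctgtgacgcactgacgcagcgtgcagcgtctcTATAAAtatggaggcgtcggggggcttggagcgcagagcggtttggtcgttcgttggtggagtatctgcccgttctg
The Hist1h1c window held, in order toward the start, the AAACACA element, a single CCAAT box and a TATA stretch of 2 overlapping matches, at a GC content of 50.3%. The H3.3 windows differed from each other: H3f3a had 6 matches to GGGCGG, 1 to CCAAT, 1 to AAACACA and none to a TATA motif, at 74.0% GC, whereas H3f3b had 4 to CCAAT, 1 TATA motif and none to GGGCGG, at 55.0% GC. H1f0, H1fx and H2afy, at 75.0%, 77.7% and 74.3% GC, had no CCAAT and no TATA motif, and H2afz had 3 CCAAT matches. A match describes letters and is not evidence of a bound factor.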

How the data were processed

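RNA of 10 libraries of sorted AT2 cells was made into polyA libraries with NEBNext Ultra and sequenced on a NextSeq 500, per the labels' protocols. The authors deposited 1 table of normalized counts, a signal that is never negative and not whole (16154 genes); per the submitters' processing notes, bcl2fastq 2.17, edgeR 3.14.0 and mm10 were used, with aligner, counting and strand settings not given in the sources used here. Depth was already evened out, and whole reads were not recovered, so no count test was run.

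Each value was scaled by the average column total (7.14 M). Genes reaching 1 per M in 5 or more libraries (12946, all 9 members among them) were tested with limma-trend (limma 3.58.1, R 4.3.3) on log2(value per M + 0.5) for knockout minus WT, two-sided and without covariates, with Benjamini-Hochberg adjustment over all genes, threshold 0.05. This scale understates the change of low genes. p-values measure the spread between mice as labelled. The procedure was tested on simulated data. Levels per kb use GENCODE M21 exon lengths, and symbols were matched for 16034 IDs. Histone stem-loops, polyadenylation signals and shared windows were searched in GENCODE M21 transcripts; promoters come from RefSeq. Python 3.11.15, numpy 2.4.6 and pandas 2.3.3 were used, with matplotlib 3.10.9 for the plots.

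The members and gene lists were chosen with earlier results of these data known. Named genes are Rbck1, the members, the 3 highest genes per kb of each pathway list and any that pass. The 5 genes most like Hist1h1c and 1 for each other member are named too, and marker lists are given as sums. Small counts spelled out, neighbours of the pair, Hist1h1b, and the markers Scgb1a1 and Sftpd were named after their values were seen. Alternatives were a pseudocount of 0.1 or 2, a low-value filter at 5 per M or none, median-ratio and equal-total scaling, replicate and run terms, each run alone, sex as a covariate, 8 libraries, and leaving out each library. The planned edgeR factors were computed in a first run and then set aside, since the values are not counts. Unweighted trimmed-mean scaling was put in their place after seeing the data.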

Additional observations from a re-analysis of the deposited data

Results flagged for a closer look

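One value stood far from its group by Dixon's criterion, among 20 groups of 5 libraries looked at (the 9 members and Rbck1 in each genotype), where chance gives about 1 in 20. Rbck1 was 29.7 per M in the library labelled WT 2, while the other 4 WT libraries had 56.1 to 57.8 per M. No library of any of the 9 histone genes stood apart in this way.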

How the results depend on the processing

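Every alternative fold change of the 8 members other than H2afx was below 0, as were 22 of 23 for H2afx, which reversed to 0.13 in the second run alone (log2, adjusted p = 0.872). The alternatives reuse the same libraries, so these signs are not separate observations, and Hist1h1c was chosen as low in knockout cells. The number of genes that passed with limma was 0 over 10 libraries, 1 with run as a covariate, 41 in the second run alone and 52 without the libraries labelled knockout 1 and WT 2. Leaving out each library in turn gave 0 to 4, with 4 without knockout 1. Members under the threshold numbered 0 over 10 libraries and 1 in the second run alone and in the 8 libraries; that 1 is Hist1h1c, chosen on this contrast, so nothing is read from it. Rbck1 passed in the second run (log2 difference -0.56, adjusted p = 0.0434) and in the 8 libraries (-0.67, adjusted p = 0.00167), and lay between -0.52 and -0.24 when each library was left out. Leaving out each library put Hist1h1c between -0.73 and -0.58 and Hist1h2bc between -0.81 and -0.47. The member count in the interaction of group and run stayed at 0 under its alternatives. Only 2 of 12946 tested genes passed that interaction over 10 libraries, so this count says little about the members. The cause of these changes was not tested.

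With the replicate number as a block over the shared numbers 2 to 5, 261 of 12946 tested genes passed (210 higher, 51 lower). Hist1h2bc was among them (log2 fold change -0.85, adjusted p = 0.0262), and so was Hist1h1c, from which again nothing is read. No other member passed. The replicate numbers were not taken as a pairing: libraries of the same number correlated at 0.314, 0.0265, 0.0986 and 0.0792 in their deviations from group means. Knockout 2 was closest to WT 2, its own number, but knockout 3, 4 and 5 were closest to WT 2, 5 and 6. H1fx falls out with a filter at 5 per M and has no value there. Depth limits H1fx most, at about 2 to 3 per M. The planned edgeR scaling, meant for counts, was computed in a first run and then set aside. The trimmed-mean scaling in its place was chosen after seeing the data.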
